A study of Mus musculus with 8 samples.

Results

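Alpl, Rgcc, Car4, Itm2a, Pglyrp1, Cd36, Nostrin, Ivns1abp and Ly6c1 are genes used to mark capillary endothelial cells of the mouse brain, and their expression was followed here after subarachnoid haemorrhage (SAH). They were taken as the probe sets annotated with exactly 1 gene symbol equal to one of these 9 names. This gave 10 probe sets, 2 for Alpl and 1 for each other gene, of 41345 on the array. Endothelial cells were isolated with magnetic beads, as cells lacking CD45 and carrying CD31, from the left cerebral hemisphere of male FVB/NJ mice aged 12 weeks, and their RNA was amplified and hybridised to whole-transcript Affymetrix arrays (Mouse Gene 2.0 ST). In the 4 SAH mice, 80 µL of blood from a littermate had been placed at the skull base through a needle 24 h earlier. The 4 sham mice had the same burr hole and needle but received no blood, so both groups carried the injury of the needle track. Each array held 1 animal, and the injection model has no ruptured artery.

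Capillaries are the narrowest vessels of the brain, and their endothelium forms most of the surface across which the blood-brain barrier works. Along the path from artery to vein, endothelial cells change their transcripts gradually, and the genes above are strongest towards the capillary part of that path. Several encode proteins of the cell surface facing the blood, some held there by a lipid (glycosylphosphatidylinositol, GPI) anchor, and others act on lipid uptake, nitric oxide synthesis or the cell cycle.

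Values are log2 intensities after robust multi-array averaging (RMA), so a difference of 1 is a doubling. Array medians lay between 4.23 and 4.30, no 2 arrays held identical values, and the pan-endothelial markers were bright in both groups. Pecam1, which encodes the CD31 used for the sort, averaged 10.66 ± 0.09 in SAH and 10.30 ± 0.06 in Sham (SD, n = 4), with a log2 change of 0.37 (limma, adjusted p = 0.0673). The CD45 gene Ptprc, whose protein marks the leukocytes that were removed, averaged 3.62 ± 0.45 and 2.95 ± 0.23, below the array medians in both groups (log2 change 0.68, adjusted p = 0.123). Lists of other vessel segments and of other cell types are set beside the 9 genes below.

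Alpl, Car4 and Itm2a were lower after SAH, and the other 6 genes did not pass the test in either direction. Counted by probe set, 4 of 10 were lower and 0 of 10 were higher at an adjusted p under 0.05 (limma, with Benjamini-Hochberg adjustment over 25341 named probe sets). Of all probe sets tested, 3.18% passed by the same rule, 1.28% lower and 1.9% higher. The SAH arrays lay wholly below the Sham arrays for those same 4 probe sets and wholly above them for 1, Pglyrp1, against 4.47% and 4.51% of all probe sets, and the groups overlapped for the remaining 5. Since 9 of the 10 probe sets averaged at least 6 on the log2 scale, the bright probe sets are a closer reference, and among the 6909 of that brightness 3.16% were lower and 5.12% higher. The median log2 change was -0.20 over the 10 probe sets and -0.02 over all those tested. From bulk arrays, fewer cells of a capillary type and less RNA per cell cannot be told apart.

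**Figure D1:**
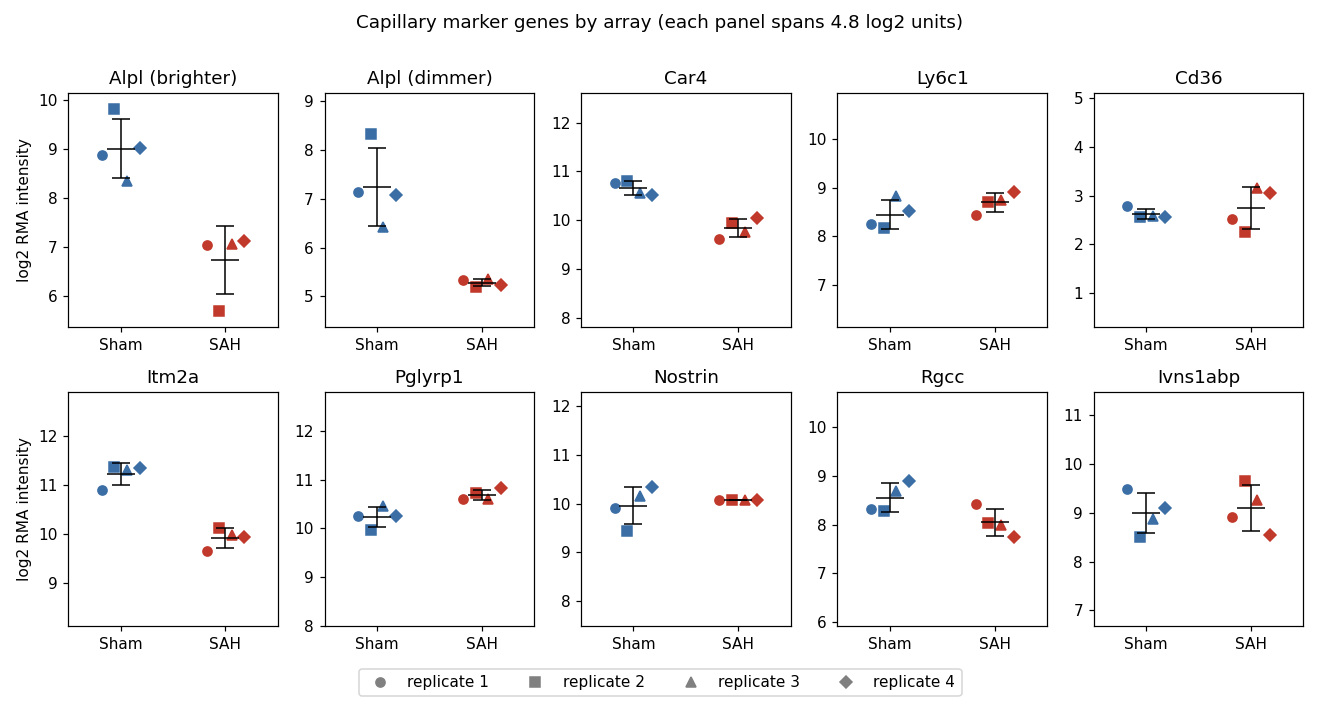
Log2 RMA intensity of the 10 probe sets on each array, 4 Sham (blue) and 4 SAH (red), with the marker shape giving the replicate, the long line the mean and the bar ± 1 SD. Every panel spans the same 4.8 log2 units, and the groups separate completely for both Alpl probe sets, Car4, Itm2a and Pglyrp1.

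**Figure D2:**
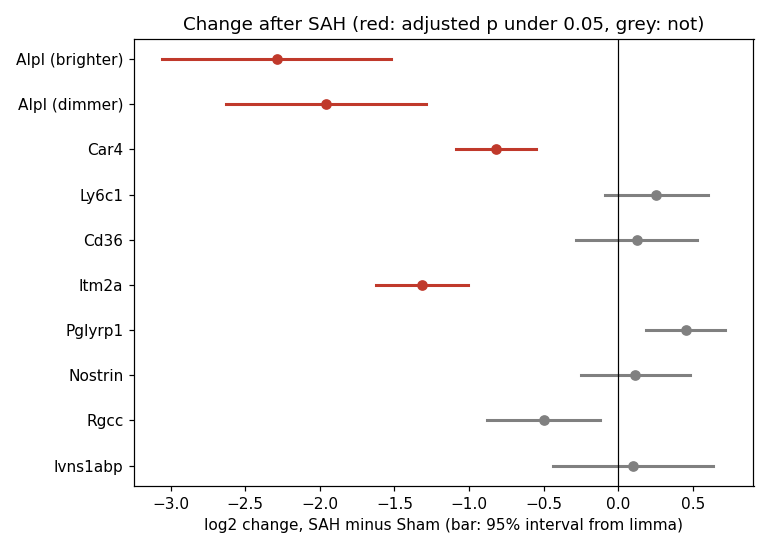
Log2 change (SAH minus Sham) of each probe set with its 95% interval from limma, in red where the adjusted p was under 0.05. The intervals of Alpl, Car4 and Itm2a lie below 0, and those of Rgcc and Pglyrp1 also exclude 0 although their adjusted p was above 0.05.

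The surface enzymes are described first. Alpl encodes tissue-nonspecific alkaline phosphatase, a GPI-anchored enzyme that removes phosphate groups from small molecules outside the cell and whose activity has long been used to stain brain capillaries in tissue sections. RefSeq lists 2 starts for it on mouse chromosome 4 (GRCm38.p6, minus strand), with promoter windows of 250 bases before to 50 bases after each start at chr4:137796335-137796634 and chr4:137766426-137766725. Both are printed because Alpl had the largest change of the 9 genes and the starts differ in base composition. Capitals mark AGGAAG (the core bound by ETS factors), GGGCGG (the GC box bound by Sp factors) or TATAAA (read by the basal transcription machinery) on either strand.
Alpl, outer start: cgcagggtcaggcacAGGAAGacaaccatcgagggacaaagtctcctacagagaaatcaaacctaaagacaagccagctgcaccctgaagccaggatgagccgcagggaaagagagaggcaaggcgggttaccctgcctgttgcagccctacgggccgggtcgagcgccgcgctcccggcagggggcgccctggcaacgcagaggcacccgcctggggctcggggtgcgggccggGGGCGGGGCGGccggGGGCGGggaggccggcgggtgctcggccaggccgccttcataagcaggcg
Alpl, inner start: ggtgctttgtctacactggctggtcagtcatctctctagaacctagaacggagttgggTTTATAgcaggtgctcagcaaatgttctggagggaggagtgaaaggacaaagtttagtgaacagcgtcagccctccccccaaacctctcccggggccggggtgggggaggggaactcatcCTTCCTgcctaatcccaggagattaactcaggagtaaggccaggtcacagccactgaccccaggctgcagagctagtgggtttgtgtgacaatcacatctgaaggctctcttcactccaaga
The outer window was 70.0% G or C with 26 CpG, and the inner one 54.3% with 4 CpG, where the median of the 32851 windows in the table was 52.7% and 7 CpG. The outer window held 3 GC boxes around the start, a pair of them overlapping, and 1 ETS core. The inner window held 1 ETS core and 1 TATAAA on the opposite strand, 193 bases before the start. Which start the array's probe sets read was not determined, as the files give no probe positions.

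The brighter Alpl probe set read 8.87, 9.82, 8.34 and 9.02 in Sham replicates 1 to 4 and 7.04, 5.68, 7.06 and 7.11 in SAH replicates 1 to 4. All SAH arrays were below all Sham arrays, by a gap of 1.24 between the nearest pair, and SAH replicate 2 lay far below the other SAH arrays. The log2 change was -2.29 (SE 0.35, 95% interval -3.06 to -1.52, limma, adjusted p = 0.00494), which put the SAH mean at 20.5% of the Sham mean and ranked 3 when all 25341 probe sets were ordered from the largest fall. Without SAH replicate 2 it was -1.94 (adjusted p = 0.00517).

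The dimmer Alpl probe set read 7.14, 8.34, 6.43 and 7.08 in Sham and 5.34, 5.20, 5.36 and 5.24 in SAH, in replicate order. The groups again did not overlap, and here the SAH arrays were tightly grouped (SD 0.08) while the Sham arrays were spread (SD 0.80, wider than in 99.7% of all probe sets). Its log2 change was -1.96 (SE 0.31, 95% interval -2.63 to -1.29, adjusted p = 0.00551), so that SAH stood at 25.7% of Sham. The low value of SAH replicate 2 at the brighter probe set was not matched here, since the brighter exceeded the dimmer by 0.48 on that array and by 1.48 to 1.94 on the other 7. Sham replicate 2 was the highest Sham array at both probe sets, and without it the log2 changes were -2.02 (adjusted p = 0.0141) and -1.60 (adjusted p = 0.00178).

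Car4 encodes carbonic anhydrase 4, a GPI-anchored enzyme on the blood side of the endothelium that interconverts carbon dioxide and bicarbonate. Its RefSeq promoter lies at chr11:84957504-84957803 (GRCm38.p6, plus strand) and is shown to set a second falling gene beside Alpl, with capitals as before.
Car4: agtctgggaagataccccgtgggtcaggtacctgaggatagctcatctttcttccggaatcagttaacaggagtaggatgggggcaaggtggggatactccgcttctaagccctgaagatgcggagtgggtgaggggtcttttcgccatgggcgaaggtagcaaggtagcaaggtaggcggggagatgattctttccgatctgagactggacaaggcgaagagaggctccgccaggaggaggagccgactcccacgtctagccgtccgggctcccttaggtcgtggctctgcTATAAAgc
It was 57.3% G or C with 15 CpG. It held neither AGGAAG nor GGGCGG on either strand, and its single TATAAA began at base 43 after the start. Car4 read 10.77, 10.80, 10.55 and 10.52 in Sham and 9.62, 9.95, 9.76 and 10.03 in SAH. Every SAH array was below every Sham array, by a gap of 0.49, and both groups were narrow. The log2 change was -0.82 (SE 0.12, 95% interval -1.09 to -0.55, limma, adjusted p = 0.00464), leaving 56.7% of the Sham level.

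The protein encoded by Itm2a spans the membrane once and belongs to a small family with a BRICHOS domain, and its transcript is abundant in brain endothelium. Its promoter at chrX:107403311-107403610 (GRCm38.p6, minus strand) is shown as that of the member with the smallest adjusted p.
Itm2a: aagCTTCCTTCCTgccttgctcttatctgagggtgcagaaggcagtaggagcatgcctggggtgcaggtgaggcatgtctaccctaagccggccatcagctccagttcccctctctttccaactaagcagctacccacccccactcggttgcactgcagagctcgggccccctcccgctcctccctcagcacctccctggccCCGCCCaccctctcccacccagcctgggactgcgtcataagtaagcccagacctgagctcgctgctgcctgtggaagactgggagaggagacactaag
It was 62.0% G or C with 7 CpG, and held 2 overlapping ETS cores far from the start and 1 GC box 49 bases before it. Itm2a read 10.90, 11.38, 11.31 and 11.35 in Sham and 9.64, 10.12, 9.98 and 9.93 in SAH. The groups were separated by 0.78, and replicate 1 was the lowest array within each. The log2 change was -1.32 (SE 0.14, 95% interval -1.62 to -1.01, limma, adjusted p = 0.00064), or 40.2% of Sham.

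The secreted member behaved otherwise. Pglyrp1 encodes a peptidoglycan recognition protein that binds bacterial cell walls and is also stored in neutrophil granules. Its promoter at chr7:18884440-18884739 (GRCm38.p6, plus strand) is shown because it was the only one of the 9 genes whose SAH arrays all lay above the Sham arrays.
Pglyrp1: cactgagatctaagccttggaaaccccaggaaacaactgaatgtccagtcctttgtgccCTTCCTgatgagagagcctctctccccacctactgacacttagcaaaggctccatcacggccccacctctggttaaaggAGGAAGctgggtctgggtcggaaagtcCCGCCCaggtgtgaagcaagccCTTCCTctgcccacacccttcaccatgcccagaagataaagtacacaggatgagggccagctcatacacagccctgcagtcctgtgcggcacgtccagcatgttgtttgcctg
This window was 56.0% G or C with 5 CpG, and held 3 ETS cores and 1 GC box, 86 bases before the start. Pglyrp1 read 10.25, 9.96, 10.46 and 10.25 in Sham and 10.60, 10.72, 10.60 and 10.82 in SAH. The gap between the groups was 0.14, smaller than for any of the falling probe sets. The log2 change was 0.45 (SE 0.12, 95% interval 0.19 to 0.72), and the adjusted p of 0.0763 from limma missed the threshold. It passed when only probe sets averaging at least 6 were tested (adjusted p = 0.0316). Of the 14 neutrophil markers measured, 2 were higher after SAH, against 1.9% of all probe sets tested. They were S100a8, by 2.07 (adjusted p = 0.0229), and S100a9, by 1.21 (adjusted p = 0.0355). These calls were sensitive to single arrays, and the count of 2 fell to between 0 and 1 without SAH replicate 1 or 2 or without any 1 of the Sham replicates. The Sham mean of S100a8 was 3.67, below the array medians, so the size of its difference depends on a low level. The mean of the 14 ranged from 3.85 to 4.26 over the SAH arrays and from 3.64 to 3.84 over the Sham arrays. Of the 14, 9 had means below every array median in both groups, Ly6g, Mpo and Camp among them, and the other 5 (S100a8, S100a9, Elane, Cxcr2 and Itgam) reached or passed that level in at least 1 group. The part of neutrophil RNA in the Pglyrp1 values was not tested.

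Across the 12 promoter windows that RefSeq lists for the 9 genes, the ETS core occurred in 9 (7 genes), the GC box in 7 (6 genes) and TATAAA in 3 (3 genes). The shares among all 32851 windows were 35.4%, 35.7% and 13.6%, both strands counted. CTTTGA, read by TCF and LEF factors, was in 1 window, of Nostrin (5257 of all 32851 windows held it), and AACAAT, read by SOX factors, in 1, of Cd36 (10.7% of all windows). The remaining 6 motifs searched were not capitalised either. The NF-kappaB motif, GGGA followed after any 4 bases by CC, was in 8 windows (20.7% of all). The CCAAT box was in 2 windows (37.4% of all), the E-box CACGTG in 2 (7.15% of all) and the GATA motif AGATAA in 2 (11.2% of all). The FOX motif GTAAACA (3.65% of all) and the STAT motif, TTC followed after any 3 bases by GAA (8.3% of all), were in 0 of the 12. Windows of the same gene overlap for Ly6c1 and Ivns1abp. These are letter matches in a short window, counted without a test.

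Among the surface antigens and receptors, neither gene passed the test. Ly6c1 encodes a GPI-anchored Ly6 protein carried by endothelium and by some leukocytes. It read 8.25, 8.17, 8.83 and 8.53 in Sham and 8.43, 8.70, 8.74 and 8.91 in SAH. Those ranges overlapped, and the log2 change was 0.25 (95% interval -0.09 to 0.60, limma, adjusted p = 0.536). Ly6c2, its near-identical neighbour, averaged 8.80 in Sham and 8.93 in SAH (log2 change 0.13, adjusted p = 0.751), and whether the probes of each gene read only that gene was not tested. Ly6a, another relative, was not analysed here.

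Cd36 encodes a scavenger receptor that also takes up long-chain fatty acids. It read 2.79, 2.56, 2.59 and 2.56 in Sham and 2.53, 2.25, 3.17 and 3.05 in SAH. All 8 values were below the array medians, brighter than only 12.1% of probe sets on average. The SAH arrays lay on both sides of the Sham arrays (log2 change 0.12, 95% interval -0.28 to 0.53, adjusted p = 0.842).

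Of the intracellular proteins, Nostrin binds endothelial nitric oxide synthase and draws it away from the plasma membrane. Nostrin read 9.92, 9.44, 10.15 and 10.34 in Sham and 10.08, 10.07, 10.08 and 10.08 in SAH. The SAH arrays fell inside the Sham range and differed among themselves by no more than 0.0081, and 0 of the 25341 probe sets had a smaller SAH SD than its 0.0036. The Sham SD was 0.39. The log2 change was 0.11 (95% interval -0.25 to 0.48, adjusted p = 0.836).

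Rgcc encodes a regulator of the cell cycle that is induced by complement. Rgcc read 8.31, 8.29, 8.70 and 8.89 in Sham and 8.41, 8.04, 7.99 and 7.74 in SAH. Only SAH replicate 1 overlapped the Sham arrays. The log2 change was -0.50 (95% interval -0.88 to -0.12), with an unadjusted p of 0.0139 in limma that did not pass after adjustment (adjusted p = 0.187).

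Ivns1abp encodes a Kelch-repeat protein first found as a partner of an influenza virus protein. It read 9.49, 8.51, 8.88 and 9.10 in Sham and 8.92, 9.65, 9.27 and 8.54 in SAH. The groups covered nearly the same range, and the log2 change was 0.10 (95% interval -0.44 to 0.63, limma, adjusted p = 0.917).

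Set side by side, the intervals show how unequal the 9 genes were. The upper bounds for Alpl (-1.52 and -1.29) and Itm2a (-1.01) lay below the lower bounds of Rgcc, Ly6c1, Cd36, Pglyrp1, Nostrin and Ivns1abp, the lowest of which was -0.88 for Rgcc. For Car4 this did not hold, as its interval (-1.09 to -0.55) overlapped that of Rgcc (-0.88 to -0.12). Differences between genes were not themselves tested. Within the Sham group, replicate 2 was the highest array for all 4 falling probe sets and the lowest for all 6 others. Over all probe sets that array was the highest Sham array in 27.9% and the lowest in 23.9%. The 4 falling probe sets passed with any 1 of the 8 arrays left out. With the methods' t-test in place of limma, which takes each probe set's spread from its own arrays alone, Itm2a passed (adjusted p = 0.0414), and Car4 (adjusted p = 0.0675) and the Alpl probe sets (adjusted p = 0.119 and 0.122) did not. On linear intensities Car4 and Itm2a passed in limma and neither Alpl probe set did (adjusted p = 0.168 and 0.323).

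**Figure D3:**
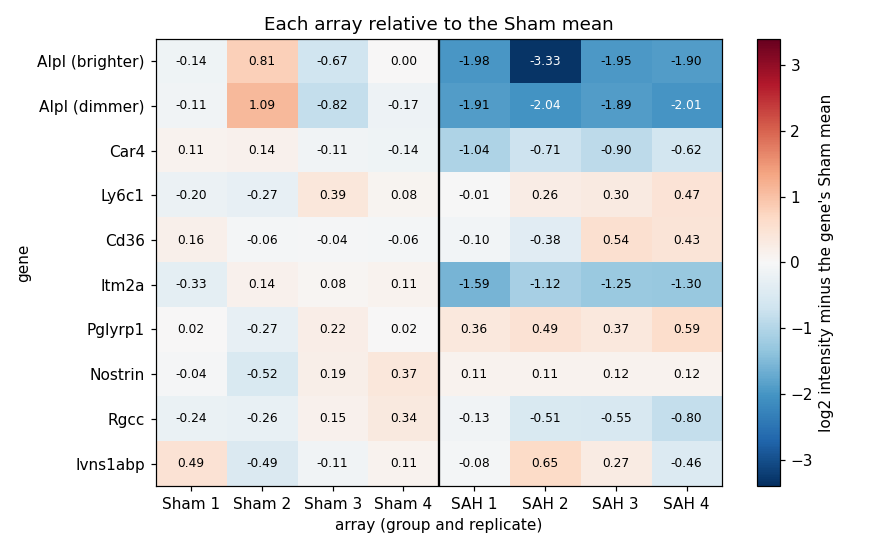
Log2 intensity of each probe set on each array minus that probe set's Sham mean, with Sham replicates left of the black line and SAH replicates right of it. The Alpl, Car4 and Itm2a rows are below 0 on all 4 SAH arrays, as is the shallower Rgcc row, while Pglyrp1 and Nostrin are above 0 on all 4.

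Other capillary and barrier genes, from a list of 25, were mostly lower as well. Of the 25, 14 were lower and 0 higher, against 3.16% and 5.12% of the probe sets averaging at least 6, as all 25 did. The median log2 change of the 25 was -0.70, and it was 0.02 over the probe sets of that brightness. Cxcl12, a chemokine, had the largest fall (-1.92, SE 0.16, adjusted p = 0.000186), followed by Spock2, a matrix proteoglycan (-1.57, adjusted p = 0.000609), Tfrc, the transferrin receptor (-1.51, adjusted p = 0.00572), and Slc16a4, a member of the monocarboxylate transporter family (-1.21, adjusted p = 0.00219). Of these genes 11 were already known from earlier results of these data, 8 of them lower, while of the other 14, 6 were lower and all 14 had a negative log2 change. With the 2 arrays that carry label number 6 left out, 8 of the 25 were lower.

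The pan-endothelial list gives the level of genes shared by endothelium of all segments. All of its genes averaged at least 6, where 3.16% of probe sets were lower and 5.12% higher. Of its 18 genes, 2 were lower, Tek (-0.99, adjusted p = 0.00658) and Kdr (-0.78, adjusted p = 0.0163), the receptors of the angiopoietins and of VEGF, and 1 passed without SAH replicate 3 or without Sham replicate 2. The median log2 change was -0.04, and the mean of the 18 genes ranged from 9.52 to 9.65 over the SAH arrays and from 9.67 to 9.81 over the Sham arrays. With each array centred on that mean, the log2 changes were -2.17 and -1.84 for the Alpl probe sets, -0.70 for Car4 and -1.20 for Itm2a, all 4 still passing in limma, and Pglyrp1 passed too (0.57, adjusted p = 0.0416). This centring was added after seeing the data and moved the median of all probe sets from -0.02 to 0.10. Over all probe sets, the number lower went from 325 to 191 and the number higher from 482 to 769.

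Genes of the neighbouring vessel segments are given next, beside 1.28% lower and 1.9% higher over all probe sets tested. Of 20 arterial genes, 4 were lower and 2 higher, with a median of -0.10, and the count higher was 1 with any 1 of 6 arrays left out (SAH replicates 1, 2 and 3 and Sham replicates 2, 3 and 4). Gkn3, an arterial marker, fell by 2.30 on the log2 scale (adjusted p = 0.00662). Of 13 venous genes measured, 6 were higher and 1 lower, with a median of 0.85. The count higher fell to 3 without SAH replicate 2 or without Sham replicate 1, 2 or 3. The duffy receptor Ackr1 was higher by 5.20 (adjusted p = 0.00165), the adhesion molecule Selp by 4.21 (adjusted p = 0.000133) and Lcn2, a secreted iron-siderophore binder, by 3.71 (adjusted p = 0.00196). Selp averaged 4.21 in Sham, below the array medians, and Ackr1 4.79, so the sizes of both differences depend on a low Sham level. The Sham arrays were also uneven for Ackr1, at 4.81, 3.47, 3.70 and 7.20 in replicates 1 to 4. Sham replicate 4 was the highest Sham array for Lcn2 too (8.56), but not for Selp. Not every venous gene was higher. Slc38a5 was the 1 lower (-0.94, limma, adjusted p = 0.0142). Nr2f2 (0.13, adjusted p = 0.772) and Ephb4 (-0.23, adjusted p = 0.454) did not pass. Whether the higher venous genes mark a change of segment identity was not tested, and no test compared the lists with each other.

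**Figure D4:**
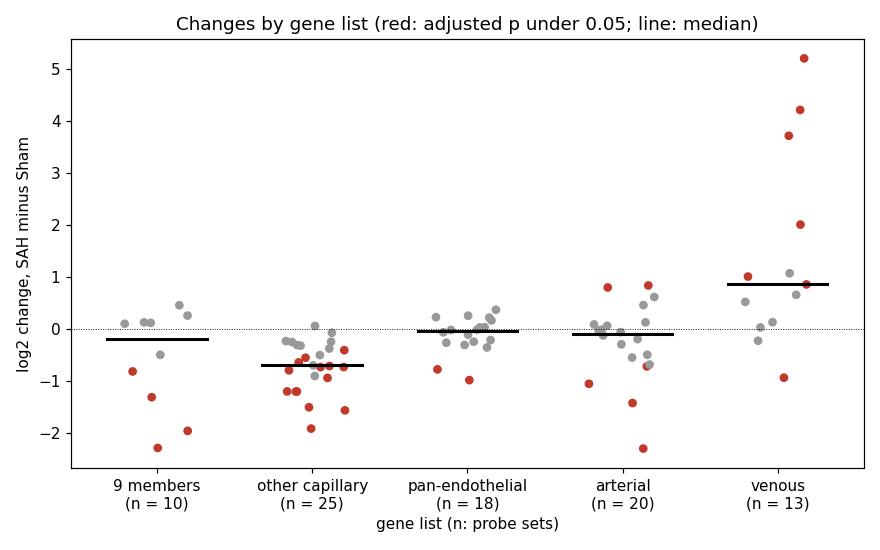
Log2 change (SAH minus Sham) of the 10 probe sets of the 9 genes and of the other capillary, pan-endothelial, arterial and venous lists, one point per probe set, red where the adjusted p was under 0.05, with a line at each median. The medians are -0.20, -0.70, -0.04, -0.10 and 0.85 in that order.

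Relatives and partners of the 9 genes were followed as well, beside 1.28% lower and 1.9% higher over all probe sets tested. Among 43 family relatives measured (other alkaline phosphatases, carbonic anhydrases, Itm2 and Ly6 proteins and the like), 1 was lower and 2 higher. Itm2c, of the Itm2a family, was higher by 0.99 (adjusted p = 0.00757), opposite to Itm2a. Itm2b, of the same family, did not pass (log2 change -0.26, limma, adjusted p = 0.21), though every SAH array lay below every Sham array. The carbonic anhydrase gene Car13 was higher by 1.09 (adjusted p = 0.0116), opposite to Car4 but averaging only 3.76 in Sham. Lynx1, of the Ly6 family, was lower by 0.79 (log2 change -0.79, adjusted p = 0.0235), a call that was lost without SAH replicate 1, 2 or 3 and without Sham replicate 1 or 2.

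Among 22 partners in phosphate, lipid and nitric oxide handling, 2 were lower and 3 higher (1.28% and 1.9% of all probe sets tested). Cav1, the caveolar protein that binds endothelial nitric oxide synthase, fell by 0.92 on the log2 scale (adjusted p = 0.00266), while Nostrin's interval spanned 0. Fabp4, a fatty acid carrier, was higher by 1.51 (adjusted p = 0.00643). Slc20a1, a phosphate transporter, was higher by 0.89 (adjusted p = 0.00489). Acsl4, which activates long-chain fatty acids, was higher by 0.76 (adjusted p = 0.00489).

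Markers of cells that the sort should leave out were read on the same arrays, beside 1.28% lower and 1.9% higher over all probe sets tested. Of 18 markers of monocytes, macrophages and microglia, 4 were higher and 0 lower, with Ctss higher by 1.46 (adjusted p = 0.0018) and Tyrobp by 1.39 (adjusted p = 0.00489). The mean of the 18 ranged from 5.68 to 6.09 in SAH and from 5.21 to 5.53 in Sham. For platelets 1 of 7 was higher (Itgb3), for pericytes and smooth muscle 1 of 13 was higher (Kcnj8), and for neurons and glia 1 of 14 was lower (Stmn2, which the arterial list also holds). The pericyte and smooth muscle list was the brightest of these lists. Its mean ranged from 7.50 to 7.88 over the SAH arrays and from 7.32 to 7.60 over the Sham arrays. The Itgb3 call was lost without SAH replicate 1 or Sham replicate 3, and the Kcnj8 call without SAH replicate 1, 3 or 4 or Sham replicate 2. Red cell markers were not analysed here. The part of such cells in the falls of Alpl, Car4 and Itm2a was not tested.

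The genes whose 8 values lay nearest to those of the brighter Alpl probe set, each relative to its own Sham mean, were sought among 6437 bright probe sets with 1 symbol. They were Slc26a10, an SLC26 family member, with a root mean square difference of 0.54, Snord35b, a small nucleolar RNA, with 0.60, the chemokine gene Cxcl12 with 0.64, Sgpp2, a sphingosine-1-phosphate phosphatase, with 0.72, and Crispld1 with 0.78. The other Alpl probe set lay at 0.48, closer than any of these. Their log2 changes ran from -2.11 for Sgpp2 to -1.53 for Crispld1, which the choice by likeness fixes in direction.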

How the data were processed

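Left-hemisphere CD45-CD31+ cells of 4 SAH and 4 sham mice were profiled on 1 array each, after RNA amplification. The authors deposited log2 RMA intensities, which they had background-corrected, quantile-normalised and summarised per probe set (oligo, under R 3.2.2). The genome build is not given in the sources used here, so no probe was placed on the genome. Of 41345 probe sets, 23521 had 1 annotated symbol, 1820 several and 16004 none in the annotation used here. The 25341 named ones were fitted with limma 3.58.1 in R 4.3.3 (lmFit, eBayes, Benjamini-Hochberg, threshold 0.05, no covariate), after the fit was tested on simulated data. There, 200 changes were planted in Gaussian noise, independent between arrays and of equal spread in both groups. The fit called 34.3% of planted log2 changes of 0.5, 95.5% of those of 1 and 100% of those of 2. Of its calls, 9.47% were unchanged probe sets, more than the threshold of 0.05 aims for. Unequal group spreads, as at the dimmer Alpl probe set and Nostrin, were not simulated. A listed gene with several probe sets was read at the brightest. Array data give no read depth, and the number of arrays limits precision. The members and lists were chosen with earlier results of these data known. Named were all member probe sets, Ly6c2, Ly6a, Pecam1, Ptprc, at most 4 passing genes a list and the 5 nearest to Alpl. Beyond that rule, Ly6g, Elane, Mpo, Camp, Cxcr2, Itgam, Slc38a5, Nr2f2, Ephb4 and Itm2b were named after their values were seen. Promoters came from RefSeq (GRCm38.p6), which matched all 9 genes. Alternatives were the methods' t-test, other moderation, weights, filters, scalings, replicate blocks and left-out arrays.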

Additional observations from a re-analysis of the deposited data

Results flagged for a closer look

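Among the 20 sets of 4 arrays (10 probe sets, both groups), 3 had an array lying far from the other 3, by a gap to the nearest above Dixon's 95% critical share of the range. Chance gives about 1 in 20. SAH replicate 2 read 5.68 at the brighter Alpl probe set, below 7.04, 7.06 and 7.11, and read close to the others at the dimmer Alpl probe set. Sham replicate 1 read 10.90 for Itm2a, below the other 3 Sham arrays, and without it the log2 change was -1.43 (limma, adjusted p = 0.000682). Sham replicate 1 also read 2.79 for Cd36, above the other 3, at a level below the array medians.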

How the results depend on the processing

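Of the 4 falling probe sets, all passed in limma with each array left out (4 in every case) and under the other filters, scalings and moderation on the log2 scale. Under the methods' t-test 1 passed (Itm2a), as did 86 of all probe sets and 3 of the 25 other capillary genes. On linear intensities 2 passed (Car4 and Itm2a), with 249 of all and 9 of the 25. The causes were not tested. With all 41345 probe sets fitted, 353 of all passed against 807 in the reported fit. More tests were adjusted for, and the moderated SE changed as well. It went from 0.35 to 0.39 at the brighter Alpl probe set and from 0.139 to 0.146 for Itm2a. Leaving out 1 array gave 471 to 684 of all probe sets and 10 to 14 of the 25. Without both arrays of label number 6, 506 of all and 8 of the 25 passed, on fewer samples. Mice sharing a number did not deviate together over all probe sets (correlations of deviations from -0.06 to 0.03). With at most 4 such pairs, this cannot decide whether the numbers pair them. The paper describes 2 samples handled per day, typically 1 of each group, and no label ties a number to a day. With a replicate block by title number the same 4 member probe sets passed, with 627 of all and 12 of the 25. With a replicate block by label number, which only 6 arrays share, 3 member probe sets passed (Car4 missed, -0.89, adjusted p = 0.0592), with 275 of all and 9 of the 25. Directions turned only for genes that never passed. Ivns1abp was -0.12 with that block, -0.09 without SAH replicate 2 and -0.07 without Sham replicate 2, with a range over left-out arrays of -0.09 to 0.28. Cd36 was -0.02 without SAH replicate 3 (range -0.02 to 0.29), and Nostrin was -0.06 without Sham replicate 2 (range -0.06 to 0.24). Pglyrp1 passed in 3 of 23 alternatives, including trended, robust moderation (adjusted p = 0.0385) and pan-endothelial centring, which was added after seeing the data and moved the median of all genes to 0.10. Precision was limited by 4 arrays a group, and Cd36 lay below the array medians. Counts of the smaller lists moved with single arrays, as given beside each. Under the methods' t-test the 6 higher venous genes became 1 and the 2 higher neutrophil markers 0, and with the label-number replicate block 3 and 0.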
